A study of Homo sapiens with 60 samples.

Results

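The highest lead (Pb) dose was set against the next lower dose in differentiating SH-SY5Y cells, a human neuroblastoma line of sympathetic origin that can be driven towards a neuron-like state. The comparison took the 3 libraries at 10 µM Pb and the 3 libraries at 1.26 µM Pb that were collected on day 15, which are 6 of the 60 libraries of the series. All groups were wild type, came from passage 39, and were plated at 1 dish of 15 cm per replicate, so replicates are separate dishes of 1 line at 1 passage. Pb was present from day 5 and was renewed at each medium change. Groups of 3 dishes at 0.16 and at 0 µM Pb on day 15 gave the lower end of the dose series, and the same doses at days 12 and 18 gave the same comparison in other dishes. The comparison asks which transcripts respond to the step up to the highest dose.

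Pb is a toxic divalent metal with no known role in the cell. It binds thiol groups, and it competes with zinc and calcium at protein sites; the heme synthesis enzyme ALAD, a zinc protein, is its best known target. Metallothioneins are small cysteine-rich proteins that bind zinc, copper and toxic metals. Their genes are switched on by the zinc-sensing transcription factor MTF1, which binds metal response elements in their promoters.

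Read depth was alike in both groups, at 24.96, 30.7 and 35.66 M assigned reads (M stands for 1e+06) at 10 µM and 23.8, 31.47 and 36.57 M at 1.26 µM. At these depths 3 reads are worth 0.0841 to 0.12 CPM (counts per 1e+06 assigned reads) at 10 µM and 0.082 to 0.126 CPM at 1.26 µM. The cells carried the sympathetic signature of the line in both groups. DBH, the enzyme that makes noradrenaline, was at 9307 to 10504 CPM at 10 µM and 11417 to 11507 CPM at 1.26 µM. Tyrosine hydroxylase (TH), the first enzyme of that pathway, was at only 6.38 to 7.29 CPM at 10 µM and 6.32 to 7.44 CPM at 1.26 µM. No member of the 4 marker lists for other cell types passed the test, and 8 of 9 epithelial markers were under 1 CPM in all 6 libraries. The summed blood and endothelial markers were at 1.01 to 1.23 CPM at 10 µM and 0.588 to 0.858 CPM at 1.26 µM, with 6 of 10 at 0 in all 6 libraries. The Schwann and glial markers summed to 58.3 to 62.9 CPM at 10 µM and 55.2 to 57.1 CPM at 1.26 µM, mostly from PMP22, and the fibroblast markers to 281 to 300 CPM at 10 µM and 282 to 312 CPM at 1.26 µM. As a sign of RNA quality, the deviation of each library's log2 values from the mean of all day 15 libraries was set against transcript length. Its slope ran from -0.0194 to 0.0894 per log10 of length at 10 µM and from -0.067 to 0.0716 at 1.26 µM, so the groups overlapped. Such a slope is relative to the other libraries of the day and does not measure their common RNA quality. In whole dishes, fewer cells that express a gene and less of its RNA per cell cannot be told apart.

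Few genes separated the doses. Of 15263 genes tested on log2(CPM + 1) with limma and Benjamini-Hochberg adjustment, 26 had an adjusted p under 0.05 (0.17% of those tested), of which 17 were higher (0.111%) and 9 lower (0.059%) at 10 µM. The genes that rose included the metallothionein gene MT2A, with the smallest adjusted p, and genes of secreted proteins such as TFPI2 and STC1. Those that fell included genes of a neurofilament, the noradrenaline transporter, matrix proteins and the secreted protein ANGPTL4. In each of the 26 genes all 3 libraries at 10 µM lay outside the range of the 3 at 1.26 µM. The same separation without the test was found upwards in 7.56% and downwards in 4.99% of all genes tested. The count rests on the spread pooled over all 20 groups, since a fit of only these 6 libraries called 1 gene, TFPI2. It also moved with single libraries: it was 12 without replicate 3 at 1.26 µM, 14 without replicate 2, 17 without replicate 1, 14 without replicate 1 at 10 µM and 17 without replicate 2. MT2A, TFPI2, STC1, PLAT, GDF15, ECM1 and NEFM passed in every fit without 1 library, and the remaining genes each lost the call in at least 1 such fit. GPNMB, ID3, RRM2 and TRIO lost it in all 6 of these fits, and VCAN and THBS1 in 5. Tests of the recovered reads with edgeR called 21 genes, 12 higher and 9 lower, of which 19 were among the 26; with median-ratio factors the split was 9 and 9. The 7 not called by edgeR were STC1, MLPH, PAEP, CGA, MT1E, ID3 and ST6GALNAC2, and with median-ratio factors also GPNMB and TRIO. With a pseudocount of 0.25 in place of 1, ECM1, PAEP, CGA, MT1E, GPNMB and ST6GALNAC2 did not pass.

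**Figure D1:**
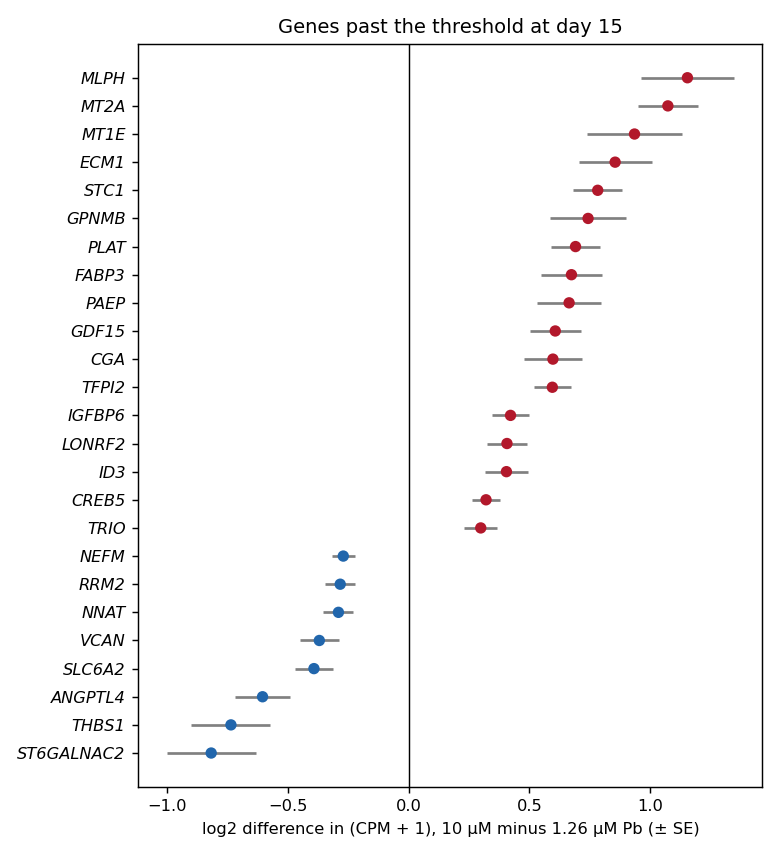
Of the 26 genes, 25 that passed the test between 10 and 1.26 µM Pb at day 15. Each point is the fitted log2 difference in (CPM + 1), 10 minus 1.26 µM, and the bar is its SE; red marks 17 higher and blue 8 lower genes, from MLPH at 1.15 down to ST6GALNAC2 at -0.82.

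Genes of metal-binding proteins were among those that rose. MT2A, the most widely expressed metallothionein gene (chromosome 16, 56608584 to 56609497, GRCh38), was at 32.8, 26.7 and 27.7 CPM at 10 µM, against 15.7, 14.8 and 9.95 CPM at 1.26 µM. Every library at 10 µM was well above every other library of the day, since means at 0.16 and 0 µM were 11.4 and 12.4 CPM. The log2 difference of MT2A between 10 and 1.26 µM was 1.07 ± 0.123 (SE, adjusted p = 3.97e-07), and between 1.26 and 0 µM, which share the 1.26 µM libraries with it, 0.10 ± 0.123 (adjusted p = 0.892). MT1E, a neighbour in the same gene cluster, was at 2.89, 2.54 and 2.24 CPM at 10 µM and 1.47, 0.699 and 0.52 CPM at 1.26 µM. Its difference of 0.94 ± 0.196 passed (adjusted p = 0.0171), but not without replicate 1 or 2 at 10 µM or replicate 2 or 3 at 1.26 µM, nor in edgeR (adjusted p = 0.112). Metallothionein genes are near copies of each other, so the share of reads given to each is uncertain. MT1F averaged 9.26 ± 1.35 CPM at 10 µM and 7 ± 0.91 CPM at 1.26 µM (SD, n = 3 each), and MT1X 3.18 ± 0.279 CPM at 10 µM and 2.51 ± 0.311 CPM at 1.26 µM; neither passed (adjusted p = 0.649 and 0.828). Of 10 metallothionein and zinc transporter genes that were tested, MT2A and MT1E rose and none fell, beside 0.17% of all genes that passed. The median log2 difference of the 10 was 0.17, against 0.01 over all genes. Of the 10, 30% were separated upwards, beside 7.56% of all genes, and 0% downwards, beside 4.99%.

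The promoters of MT2A and MT1X are shown because metal response elements lie in metallothionein promoters. The sequences are RefSeq promoters (GRCh38.p14, plus strand) that span 250 bases before and 50 after the start of the gene, at chr16:56608334-56608633 for MT2A and chr16:56682220-56682519 for MT1X. Capitals mark matches to the core TGCACNC or TGCGCNC on either strand, none of which overlap.
MT2A: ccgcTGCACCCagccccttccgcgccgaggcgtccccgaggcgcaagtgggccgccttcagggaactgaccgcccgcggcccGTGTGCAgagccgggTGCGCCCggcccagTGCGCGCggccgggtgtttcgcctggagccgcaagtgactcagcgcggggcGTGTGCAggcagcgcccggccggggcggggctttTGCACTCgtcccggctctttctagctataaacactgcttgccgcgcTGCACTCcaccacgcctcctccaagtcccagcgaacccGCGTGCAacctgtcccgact
MT1X: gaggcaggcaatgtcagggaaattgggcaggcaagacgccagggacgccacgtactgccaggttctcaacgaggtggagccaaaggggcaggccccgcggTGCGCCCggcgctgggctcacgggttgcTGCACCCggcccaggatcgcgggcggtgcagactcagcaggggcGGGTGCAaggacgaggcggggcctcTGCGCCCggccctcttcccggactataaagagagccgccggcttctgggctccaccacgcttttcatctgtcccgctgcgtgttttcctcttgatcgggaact
MT2A held 8 such matches and MT1X held 4. Among 35116 promoters of the same length, 29.6% held at least 1 match, 0.601% at least 4 and 0.0199% at least 8. Of the 18 genes past the threshold that had an entry, 7 held at least 1 match. A match describes these letters and is not a measured binding site.

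Several genes that rose encode secreted proteins, and so do some that fell, such as ANGPTL4. The share of such genes among all genes tested was not counted. TFPI2, a secreted inhibitor of serine proteases (chromosome 7, 93885396 to 93890753), was at 2208, 2189 and 2268 CPM at 10 µM, against 1500, 1472 and 1440 CPM at 1.26 µM. Its spread within each dose was far smaller than the gap between the doses, and the difference was 0.60 ± 0.076 (adjusted p = 3.48e-06). GDF15, a stress-induced cytokine of the TGF-beta family and a p53 target (chromosome 19, 18386158 to 18389176), was at 1326, 1270 and 1386 CPM at 10 µM and 836, 829 and 952 CPM at 1.26 µM. The difference was 0.61 ± 0.105 (adjusted p = 0.00167). GDF15 was the only one of 22 tested genes of the p53 list to pass, beside 0.17% of all genes. In that list 4.55% were separated upwards, beside 7.56% of all genes, and 0% downwards, beside 4.99%.

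STC1, a secreted glycoprotein hormone that acts on calcium and phosphate handling, was low but clearly separated, at 1.48, 0.912 and 1.46 CPM at 10 µM and 0.252, 0.35 and 0.355 CPM at 1.26 µM. Its mean fold was 4.03, and the limma difference of 0.78 ± 0.101 on the log2(CPM + 1) scale, which understates the change of low genes, had an adjusted p of 3.48e-06; edgeR on the recovered reads gave an adjusted p of 0.15. PLAT, tissue-type plasminogen activator (chromosome 8, 42174718 to 42207565), was at 21, 24 and 19.2 CPM at 10 µM and 13.1, 11.9 and 13.5 CPM at 1.26 µM, a difference of 0.69 ± 0.103 (adjusted p = 8.87e-05). ECM1, a secreted matrix protein, was at 20.5, 27.9 and 24.7 CPM at 10 µM and 13.2, 12.5 and 13.1 CPM at 1.26 µM (0.86 ± 0.151, adjusted p = 0.00207). The 10 µM libraries of ECM1 spread more than those at 1.26 µM, yet the lowest of them was above all 3 libraries at 1.26 µM. IGFBP6, which binds insulin-like growth factor II, was at 162, 165 and 178 CPM at 10 µM and 132, 127 and 118 CPM at 1.26 µM (0.42 ± 0.078, adjusted p = 0.0035).

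CGA, the alpha subunit shared by the glycoprotein hormones, averaged 12.8 ± 0.465 CPM at 10 µM and 8.1 ± 0.457 CPM at 1.26 µM (SD, n = 3 each; adjusted p = 0.0112). PAEP, a secreted lipocalin, averaged 1.12 ± 0.173 CPM at 10 µM and 0.339 ± 0.0875 CPM at 1.26 µM (adjusted p = 0.00918). Neither passed in edgeR (adjusted p = 0.175 for CGA and 0.406 for PAEP). Genes of intracellular and membrane proteins also rose. FABP3, a fatty acid binding protein, was at 9.14, 8.34 and 9.23 CPM at 10 µM and 5.76, 5.56 and 4.37 CPM at 1.26 µM (0.67 ± 0.126, adjusted p = 0.0039). GPNMB, a glycoprotein of lysosomes and melanosomes, was at 9.7, 10.2 and 10 CPM at 10 µM and 5.84, 5.27 and 5.55 CPM at 1.26 µM (0.74 ± 0.157, adjusted p = 0.0178). LONRF2, a RING finger protein with a LON domain, was at 84.8, 86.6 and 87.5 CPM at 10 µM and 60.4, 66.8 and 67.5 CPM at 1.26 µM (0.41 ± 0.081, adjusted p = 0.00869). In FABP3, GPNMB and LONRF2 the gap between the doses was wider than the range within either dose. MLPH, which links melanosomes to their motor protein, had a fold of 3.56 but ran from 0.168 to 1.45 CPM within the 1.26 µM group (adjusted p = 0.000951; 0.132 in edgeR).

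Transcription and signalling genes were among the smaller rises. CREB5, a cAMP response element binding factor, averaged 50.8 ± 2.36 CPM at 10 µM and 40.6 ± 2.96 CPM at 1.26 µM (adjusted p = 0.00218). ID3, an inhibitor of basic helix-loop-helix factors that BMP signals induce, averaged 35.3 ± 1.91 CPM at 10 µM and 26.4 ± 1.05 CPM at 1.26 µM (adjusted p = 0.0243). TRIO, an exchange factor for small GTPases, averaged 58.1 ± 2.96 CPM at 10 µM and 47 ± 0.955 CPM at 1.26 µM (adjusted p = 0.0345; SD, n = 3 each). The call of ID3 was lost when libraries were rescaled by median ratios and in edgeR (adjusted p = 0.0991). ID3 was the only one of 18 tested genes of the TGF-beta and BMP list to pass, beside 0.17% of all genes. In that list 11.1% were separated upwards, beside 7.56% of all genes, and 0% downwards, beside 4.99%.

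Genes of the neuronal and noradrenergic state were among those that fell. NEFM, the medium neurofilament subunit (chromosome 8, 24913761 to 24919093), was at 190, 186 and 205 CPM at 10 µM, against 238, 231 and 233 CPM at 1.26 µM, and at means of 234 and 236 CPM at 0.16 and 0 µM. The 3 lower doses of NEFM thus lay within a few CPM of each other, and the difference between 10 and 1.26 µM was -0.27 ± 0.048 (adjusted p = 0.00216). NEFL, the light subunit, averaged 648 ± 35.7 CPM at 10 µM and 760 ± 15.5 CPM at 1.26 µM and did not pass (adjusted p = 0.0679). Of 22 tested genes of the neuronal cytoskeleton, 1 fell and none rose, with a median of -0.03, beside 0.17% of all genes that passed. In that list 9.09% were separated downwards, beside 4.99% of all genes, and 0% upwards, beside 7.56%.

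SLC6A2, the noradrenaline transporter (chromosome 16, 55655988 to 55706192), was at 82.3, 78.2 and 79.8 CPM at 10 µM and 105, 111 and 101 CPM at 1.26 µM, with means of 112 and 108 CPM at 0.16 and 0 µM. The difference was -0.39 ± 0.078 (adjusted p = 0.00833), and its call was lost without replicate 2 at 10 µM (-0.38, adjusted p = 0.0642) or at 1.26 µM (-0.36, adjusted p = 0.108). DDC, the aromatic amino acid decarboxylase, averaged 208 ± 8.72 CPM at 10 µM and 258 ± 6.98 CPM at 1.26 µM but did not pass (adjusted p = 0.146), and DBH did not either (adjusted p = 0.327). Among 20 tested noradrenergic genes, SLC6A2 alone passed. Another 5 without a call also had all 3 libraries at 10 µM below all at 1.26 µM, so that 6 of 20 (30%) were separated downwards, beside 4.99% of all genes, and 1 of 20 (5%) upwards, beside 7.56%. The median was -0.11, with 13 negative and 7 positive differences. NNAT, a small endoplasmic reticulum membrane protein of neurons, averaged 130 ± 7.22 CPM at 10 µM and 159 ± 6.72 CPM at 1.26 µM (adjusted p = 0.0189).

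Matrix and metabolic genes completed the fall. VCAN, the large matrix proteoglycan versican, was at 138, 140 and 142 CPM at 10 µM and 171, 179 and 195 CPM at 1.26 µM (-0.37 ± 0.082, adjusted p = 0.0273). THBS1, the matrix protein thrombospondin 1, was at 2.12, 2.12 and 2.47 CPM at 10 µM and 4.71, 5.27 and 3.36 CPM at 1.26 µM (-0.74 ± 0.164, adjusted p = 0.0287). THBS1 was the 1 gene to pass among the 24 tested genes of the collagen and matrix list, beside 0.17% of all genes. That list did not hold VCAN, nor ECM1, a matrix protein gene that rose. In it 8.33% were separated downwards, beside 4.99% of all genes, and 4.17% upwards, beside 7.56%. ANGPTL4, a secreted inhibitor of lipoprotein lipase, was at 13.1, 14.5 and 17.4 CPM at 10 µM and 23.4, 21.6 and 24.7 CPM at 1.26 µM (-0.61 ± 0.115, adjusted p = 0.00475). ST6GALNAC2, a sialyltransferase, was at 0.321, 0.423 and 0.028 CPM at 10 µM and 1.68, 0.794 and 1.2 CPM at 1.26 µM, and the last 10 µM value is below that of 3 reads. Its means at 0.16 and 0 µM were 0.594 and 0.647 CPM, between those of the higher doses, and it did not pass between 10 and 0 µM (adjusted p = 0.239) or, between 10 and 1.26 µM, in edgeR (adjusted p = 0.141). RRM2, the small subunit of ribonucleotide reductase, was at 69, 67.7 and 68 CPM at 10 µM and 83.4, 82.3 and 84.1 CPM at 1.26 µM (-0.28 ± 0.062, adjusted p = 0.0269).

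Over the dose series the genes differed in where their means shifted, described here for some of them and without a test of shape. In MT2A, PLAT, FABP3, CREB5, ID3, NEFM, SLC6A2 and ANGPTL4 the means at 0, 0.16 and 1.26 µM lay close together and the mean at 10 µM lay apart. The difference between 1.26 and 0 µM in these genes ran from -0.14 for PLAT to 0.10 for MT2A, and none passed. In TFPI2, GDF15, ECM1, IGFBP6, LONRF2, CGA and RRM2 the means already shifted at lower doses. GDF15 averaged 606, 786, 872 and 1327 CPM at 0, 0.16, 1.26 and 10 µM, and RRM2 averaged 102, 93.8, 83.3 and 68.2 CPM. The 1.26 against 0 µM difference passed in these 7 genes, from 0.30 (adjusted p = 0.0386) for IGFBP6 to 0.60 (adjusted p = 0.0269) for ECM1 upwards and -0.30 (adjusted p = 0.00573) for RRM2. Between 0.16 and 0 µM none of the 7 passed (adjusted p of 0.606 or above). NNAT averaged 186, 175, 159 and 130 CPM over the same doses, and its difference of -0.23 between 1.26 and 0 µM fell just short (adjusted p = 0.053).

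Whether the step from 1.26 to 10 µM differed from the step from 0 to 1.26 µM was tested in the same model. No gene of 15263 passed (0%) in limma or in edgeR, with 671 at an unadjusted p under 0.05 in limma. That count was 632 between 0.16 and 0 µM, where 2 genes passed, and 1021 between 10 and 1.26 µM, so 671 is not a sign of a difference between the steps. The smallest adjusted p for the steps was 0.2, shared by PLAT, with a difference between the steps of 0.83 ± 0.178, and CDC20, a mitotic activator of the anaphase-promoting complex, with 0.59 ± 0.122. MT2A followed with 0.97 ± 0.213 (adjusted p = 0.203). CDC20 itself averaged 25.5 ± 3.96 CPM at 10 µM and 26.1 ± 0.844 CPM at 1.26 µM, against 41 ± 0.463 CPM at 0 µM. Without the filter on low values 35 genes passed, 5 higher and 30 lower. For context, 867 genes (5.68%) passed between 10 and 0 µM and 192 (1.26%) between 1.26 and 0 µM. These counts were 355 and 13 in fits of only the groups compared. Without replicate 2 at 10 µM the count between 10 and 0 µM was 468, and it was 490 without replicate 3 at 0 µM. The count between 1.26 and 0 µM was 90 without replicate 2 and 65 without replicate 3 at 1.26 µM, and 68 without replicate 1 and 99 without replicate 3 at 0 µM.

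**Figure D2:**
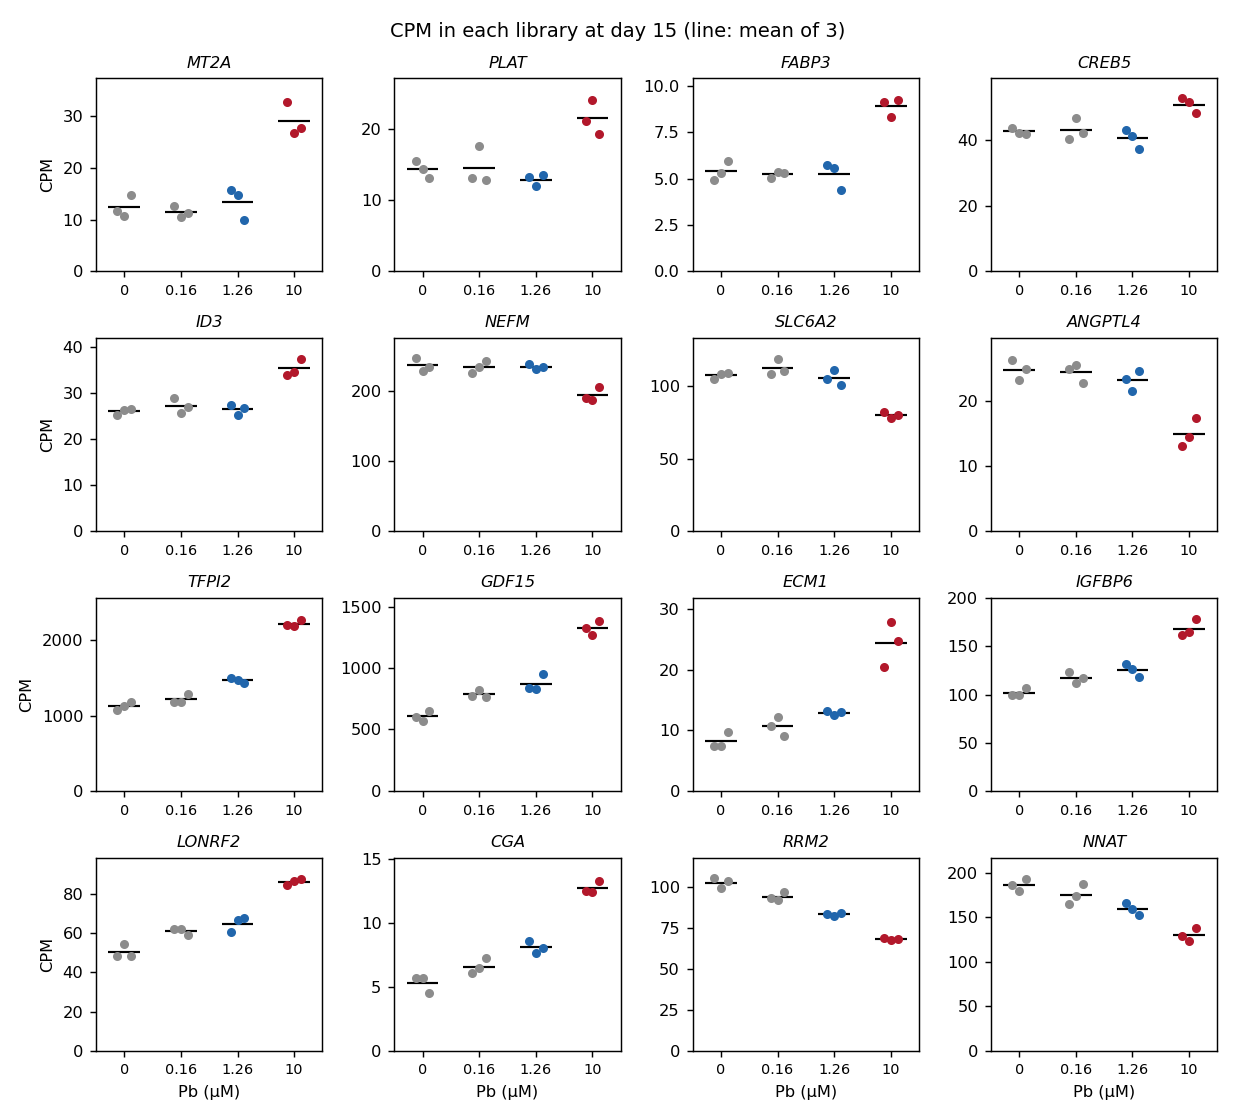
CPM of 16 genes in every library of day 15 by Pb dose in µM, on axes that start at 0; each point is 1 library and each line the mean of 3. In the upper rows, such as MT2A, the mean at 10 µM (29.1 CPM) lies apart from the 3 lower doses, and in the lower rows, such as GDF15, means shift over the whole series.

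Gene lists were read by their counts and medians beside the same over all genes. In 18 of the 26 lists no member passed the test. Mitochondrially encoded transcripts, which encode respiratory chain subunits and have copies in the nuclear genome that can share reads, had the highest median, 0.28. Their sum was 20543 to 25261 CPM at 10 µM and 16502 to 19454 CPM at 1.26 µM. All libraries at 10 µM were above all at 1.26 µM in 7 of 13 (53.8%), beside 7.56% of all genes. The complex I subunit gene ND5 was at 2876, 2419 and 2426 CPM at 10 µM and 2139, 2117 and 1965 CPM at 1.26 µM, just short of the threshold (0.31 ± 0.074, adjusted p = 0.058). ND1 (adjusted p = 0.0684) and ND4 (adjusted p = 0.116) did not pass either, and replicate 1 at 10 µM was the highest in ND5, ND1 and ND4. The 24 tested nuclear genes of the respiratory chain had a median of -0.02, with none above and 2 below (8.33%, beside 4.99% of all genes).

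Cholesterol and fatty acid synthesis had 9 of 28 members (32.1%) separated upwards, beside 7.56% of all genes, and none downwards. The list had no call and a median of 0.09. HMGCS1, which makes the precursor of mevalonate, averaged 313 ± 11 CPM at 10 µM, 265 ± 16.8 CPM at 1.26 µM and 208 ± 8.88 CPM at 0 µM, and did not pass between the upper doses (adjusted p = 0.506). Cell cycle and replication genes had the reverse form, with 1 call, RRM2. Of these 32 genes, 11 (34.4%) were separated downwards, beside 4.99% of all genes, and none upwards. Their median was -0.09 between 10 and 1.26 µM and -0.33 between 1.26 and 0 µM, 2 comparisons that share libraries. PLK1, a mitotic kinase, averaged 34.2 ± 2.43 CPM at 10 µM, 38.9 ± 0.435 CPM at 1.26 µM and 51.4 ± 5.04 CPM at 0 µM (adjusted p = 0.685 between the upper doses). All 32 cytosolic ribosomal protein genes had negative differences, with a median of -0.11, and none passed. Over all genes, 7030 of 15263 differences were negative. Just 2 of the 32 (6.25%) were separated downwards, beside 4.99% of all genes, and none upwards. The sum of all 32 was 27090 to 30628 CPM at 10 µM and 28904 to 34661 CPM at 1.26 µM, so the doses overlapped. Ribosomal protein genes have many processed copies, which makes their counts uncertain.

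No member passed in 4 lists of stress responses, beside 0.17% of all genes tested. The medians were 0.07 for the unfolded protein response, 0.08 for the ATF4 and amino acid response, 0.06 for cytosolic heat shock and 0.05 for NRF2 targets. In these lists 18.2%, 18.2%, 21.1% and 4.35% of members were separated upwards, beside 7.56% of all genes. Downwards it was 4.55%, 4.55%, 0% and 8.7%, beside 4.99% of all genes. The endoplasmic reticulum chaperone gene HSPA5 averaged 1233 ± 79 CPM at 10 µM and 1194 ± 42.1 CPM at 1.26 µM, and did not pass (adjusted p = 0.967). Both means were above the 956 ± 33.9 CPM at 0 µM (adjusted p = 3.11e-07 for 10 µM and 5.73e-05 for 1.26 µM). ATF4 averaged 91 ± 2.05 CPM at 10 µM and 90.1 ± 2.91 CPM at 1.26 µM (adjusted p = 0.997). Heme synthesis and iron genes had a median of 0.01 and no call, with 9.09% separated upwards and 13.6% downwards, beside 7.56% and 4.99% of all genes. In that list ALAS1, the first enzyme of the pathway, averaged 66.3 ± 4.06 CPM at 10 µM and 57.4 ± 1.16 CPM at 1.26 µM (adjusted p = 0.616). Immediate early and cAMP-responsive genes had 5 of 23 members (21.7%) separated upwards, beside 7.56% of all genes, none downwards and a median of 0.10. EGR3, an activity-induced transcription factor, was at 3.25, 2.12 and 1.54 CPM at 10 µM and 0.924, 1.11 and 1.15 CPM at 1.26 µM but missed the threshold (adjusted p = 0.09). Hypoxia and glycolysis genes had 1 call, STC1, among 30, beside 0.17% of all genes, with a median of -0.05. Of these 30, 6.67% were separated upwards, beside 7.56% of all genes, and 10% downwards, beside 4.99%. The synaptic, cholinergic, neuropeptide, mesenchymal, proteasome, retinoic acid, channel and axon guidance lists had medians between -0.05 and 0.05 and no call. In that order 11.5%, 7.69%, 5%, 4.55%, 0%, 20%, 11.1% and 3.7% of members were separated upwards, beside 7.56% of all genes. Downwards it was 0%, 7.69%, 10%, 9.09%, 3.7%, 0%, 16.7% and 11.1%, beside 4.99%. The retinoic acid target CYP26A1, at 1049 ± 97.4 CPM at 10 µM and 891 ± 22.5 CPM at 1.26 µM, stood just outside the threshold (adjusted p = 0.0538), and so did CLU, the secreted chaperone clusterin, at 294 ± 12.9 CPM at 10 µM and 244 ± 8.6 CPM at 1.26 µM (adjusted p = 0.0552). Just inside it were TRIO and ST6GALNAC2 (adjusted p = 0.0331 for ST6GALNAC2).

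**Figure D3:**
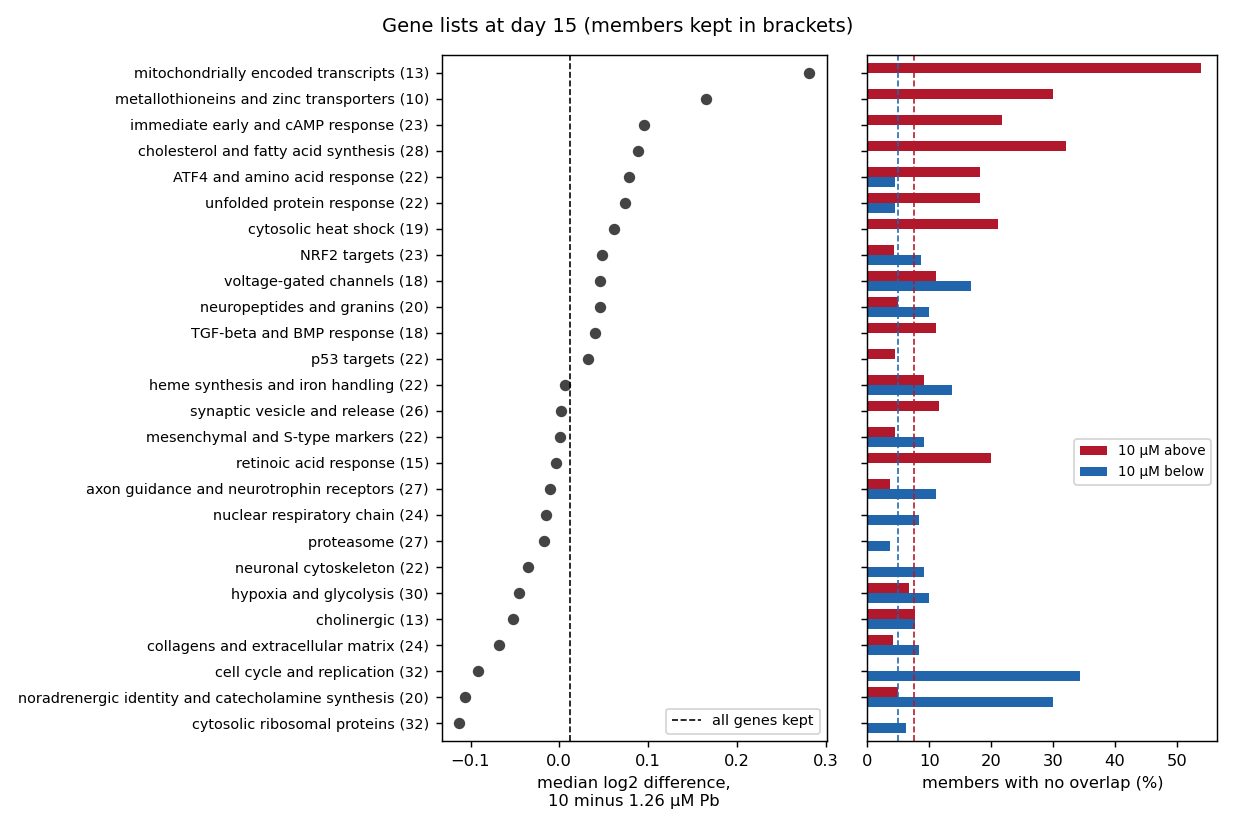
The 26 gene lists at day 15. Left, the median log2 difference between 10 and 1.26 µM Pb over the members tested, with a dashed line for all genes; right, the percent of members whose 3 libraries at 10 µM all lay above (red) or below (blue) those at 1.26 µM, with dashed lines at 7.56% and 4.99% for all genes. Mitochondrially encoded transcripts, at 0.28 and 53.8%, lie farthest to the right.

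The same doses on days 12 and 18 came from other dishes, so they are separate measurements. Day 18 libraries were made in another library pool than days 6 to 15, and their summed epithelial markers were at 79.8 to 100.1 CPM at 10 µM and 81.9 to 99 CPM at 1.26 µM, against 4.01 to 5.05 CPM at 10 µM and 4.32 to 4.57 CPM at 1.26 µM on day 15. Between 10 and 1.26 µM, 256 genes passed at day 12 (1.68%) and 1841 at day 18 (12.1%). Of the 26 genes called at day 15, 24 had the same sign at day 12 and 26 at day 18, where 55.5% and 51.5% of all genes tested did. At day 12, 11 of them passed in the same direction and at day 18, 20 did, and none passed in the opposite direction on either day.

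MT2A averaged 17.2 ± 1.9 CPM at 10 µM and 11.3 ± 1.78 CPM at 1.26 µM on day 12 (0.57 ± 0.123, adjusted p = 0.00684). On day 18 it averaged 64.7 ± 2.9 CPM at 10 µM and 35.1 ± 1.8 CPM at 1.26 µM (0.87 ± 0.123, adjusted p = 8.55e-07; SD, n = 3 each). TFPI2 differed by 0.35 ± 0.076 on day 12, 0.60 ± 0.076 on day 15 and 1.32 ± 0.076 on day 18, and GDF15 by 0.46, 0.61 and 1.89 on these days. NEFM was lower at 10 µM on each of the days, at -0.22, -0.27 and -0.40, and so was SLC6A2, at -0.29, -0.39 and -0.42. All of these differences passed the test on their own day. PLAT stood out: on day 12 it averaged 20 ± 1.07 CPM at 10 µM and 25.6 ± 1.48 CPM at 1.26 µM, the opposite order to day 15, though that difference of -0.34 ± 0.103 did not pass (adjusted p = 0.0691). PAEP was the other gene of opposite sign on day 12, with 0.395 ± 0.224 CPM at 10 µM and 0.497 ± 0.262 CPM at 1.26 µM.

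**Figure D4:**
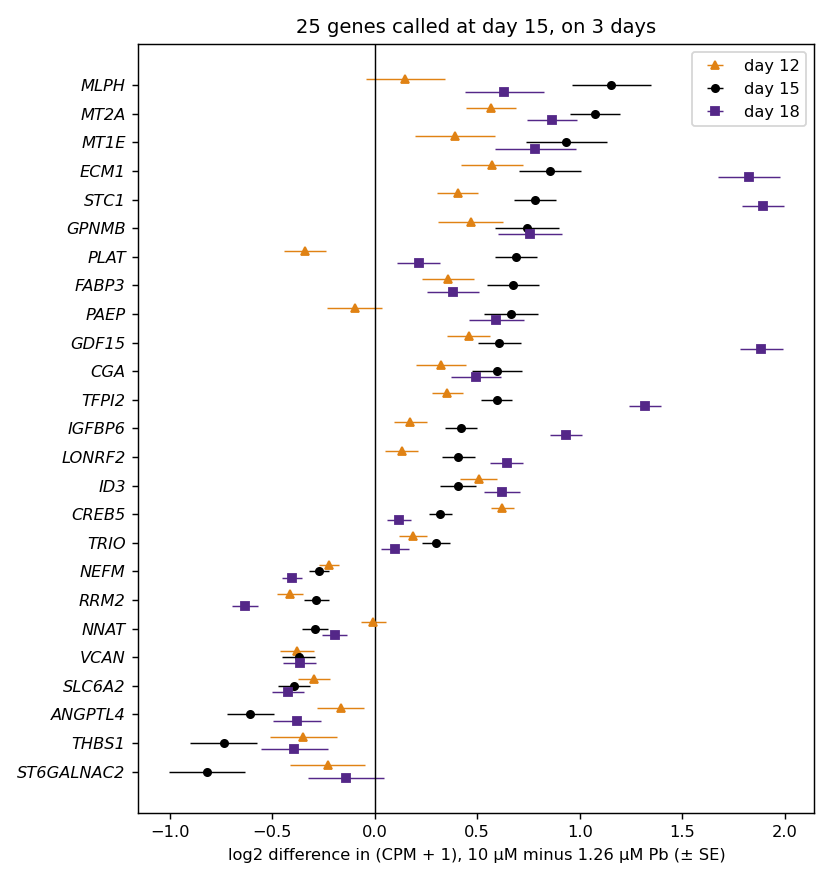
Of the 26 genes called at day 15, 25 on days 12, 15 and 18. Points are log2 differences in (CPM + 1), 10 minus 1.26 µM Pb, with their SE. PLAT lies left of 0 at day 12 (-0.34) and right of it at day 15 (0.69), and GDF15 and TFPI2 reach 1.89 and 1.32 at day 18.

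A test of the change between days found 7 genes (0.0459%) whose difference between 10 and 1.26 µM was not the same at day 15 as at day 12. In edgeR, and when just these 4 groups were fitted, 2 genes passed, both with a change upwards, so that no downward change kept its call there. PLAT was among the 7 genes in limma, with a change of 1.03 ± 0.145 (adjusted p = 4.77e-05). ATF4, the central transcription factor of the amino acid response, averaged 132 ± 6.46 CPM at 10 µM and 91.5 ± 4.13 CPM at 1.26 µM on day 12, where it passed, and the means were nearly equal on day 15. Its change of -0.51 ± 0.104 passed in limma (adjusted p = 0.0358) but not in edgeR. Between day 15 and day 18, 641 genes (4.2%) changed their difference. HSPA5 averaged 1127 CPM at 10 µM and 484 CPM at 1.26 µM on day 18, set against nearly equal means on day 15, a change of -1.17 ± 0.066 (adjusted p = 4.4e-18).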

How the data were processed

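RNA of SH-SY5Y dishes was prepared as pooled, barcoded cDNA libraries, per the labels' protocols. The authors deposited 1 table of CPM (counts per 1e+06 assigned reads) with 37334 genes and 60 libraries. Per the submitters' processing notes, the tools were STAR, featureCounts, FastQC and MultiQC and the build GRCh38; the annotation, strandedness and treatment of duplicates are not given in the sources used here, so reads of overlapping genes cannot be told apart. All deposited CPM values were whole multiples of 1 read within 0.01, and reads were recovered from them for edgeR.

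The 15263 genes that reached 1 CPM in 3 or more libraries were analysed as log2(CPM + 1) with limma 3.58.1 (R 4.3.3), with 1 mean per group, all 60 libraries, an intensity trend and 40 residual degrees of freedom. P-values were adjusted by Benjamini-Hochberg over all tested genes (threshold 0.05), and measure the spread between dishes of 1 line. Chromosome positions and promoters are from RefSeq, and transcript lengths from GENCODE v29. The fits were tested on simulated data.

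Alternatives were a pseudocount of 0.25, no filter, rescaling by median ratios, fitting just the groups compared, adding a replicate block, edgeR 4.0.16 with TMM or median-ratio factors, and leaving out each library. Genes were named by rule: among called genes without overlap and with a mean of at least 5 CPM in 1 group, the 12 largest rises and falls, and up to 4 members of each list by smallest p. The 26 gene lists and 4 marker lists, and the members, were chosen with earlier results of these data known. The 6 called genes under 5 CPM and the genes just outside the threshold were added after their values were seen. Of the 26 called genes, 1 is counted but not reported here by name. SE and SD values cover the spread between dishes of 1 line, and the value of 3 reads covers counting error only.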

Additional observations from a re-analysis of the deposited data

Results flagged for a closer look

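These results were singled out because the difference between 10 and 1.26 µM Pb changed between days by a test of the change itself. In limma 7 genes passed for day 15 against day 12. PLAT changed by 1.03 (SE 0.145, adjusted p = 4.77e-05). COL3A1, a fibrillar collagen gene, changed by 1.94 (adjusted p = 0.00101), with 1.88 CPM at 10 µM and 2.63 CPM at 1.26 µM on day 15 and 2.2 CPM at 10 µM and 14.7 CPM at 1.26 µM on day 12. LMAN2L, a cargo receptor of the secretory pathway, changed by 0.37 (adjusted p = 0.0393). GAS5, a non-coding host RNA of small nucleolar RNAs, changed by -0.55 (adjusted p = 0.0178), with 207 CPM at 10 µM and 218 CPM at 1.26 µM on day 15, and 181 CPM at 10 µM and 130 CPM at 1.26 µM on day 12. ATF4 changed by -0.51 (adjusted p = 0.0358). Neither GAS5 nor ATF4 passed in edgeR or when just these 4 groups were fitted, where 2 genes were higher and 0 lower. TAC1 and TWIST2 also passed, with means under 5 CPM in all groups compared. The count was 3 without replicate 2 or 4 without replicate 3 at 10 µM on day 15, and 4 without replicate 1 or 3 at 1.26 µM on day 15. It was 3 without replicate 3 at 10 µM on day 12, 3 without replicate 2 at 1.26 µM on day 12, and 4 without replicate 1 or 3 there.

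For day 15 against day 18, 641 genes passed. After rescaling of the libraries the split of 462 higher and 179 lower was 264 and 347. By smallest adjusted p, the 4 upward changes were 0.91 for MCM2, 0.63 for MCM5 and 0.50 for MCM7, which are replication licensing genes, and 1.34 for GFRA2, a receptor for the growth factor neurturin. MCM2 averaged 43.8 CPM at 10 µM and 41.8 CPM at 1.26 µM on day 15, and 27.9 CPM at 10 µM and 50.7 CPM at 1.26 µM on day 18. The 4 downward changes of smallest adjusted p were -1.17 for HSPA5, -0.97 for PDIA4, -0.89 for HSP90B1 and -0.76 for PDIA3, which act in protein folding in the endoplasmic reticulum. GDF15 changed by -1.28 and STC1 by -1.11. PDIA4 averaged 929 CPM at 10 µM and 908 CPM at 1.26 µM on day 15, and 840 CPM at 10 µM and 419 CPM at 1.26 µM on day 18. Day 18 is also the day of another library pool and of higher epithelial markers, and their part in these changes was not tested. Groups of 3 libraries are too small for a test of single outlying libraries.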

How the results depend on the processing

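Without the filter on low values the count between 10 and 1.26 µM was 54, with all 26 genes among them, the count for the difference between dose steps was 35 and that for day 15 minus day 12 was 12. Fits of only the groups compared gave 1, 355 (10 against 0 µM), 13 (1.26 against 0 µM), 2 (day 15 minus day 12) and 370 (day 15 minus day 18), with few residual degrees of freedom. edgeR gave 2 genes for day 15 minus day 12 with either set of factors. Leaving out 1 library gave 12 to 19 genes for 10 against 1.26 µM, 468 to 735 for 10 against 0 µM, 65 to 220 for 1.26 against 0 µM, 0 for the dose steps, 3 to 5 for day 15 minus day 12 and 462 to 613 for day 15 minus day 18; the cause of the moves was not tested. Other scaling changed the split of higher and lower genes: for 10 against 1.26 µM it was 17 and 9, and 9 and 9 in edgeR with median-ratio factors; for 10 against 0 µM 381 and 486, and 266 and 599 after rescaling; for day 15 minus day 18 462 and 179, and 264 and 347 after rescaling. Between 10 and 1.26 µM, 16 of the 26 genes passed in every alternative with all libraries except the fit of only the groups compared. No called value reversed its sign. Medians near 0 did, such as the heme list at 0.01 and in edgeR at -0.01, and the mesenchymal list at 0.000893 and in edgeR at -0.0111. The median of all genes between 10 and 1.26 µM was 0.012, after rescaling -0.0103 and in edgeR -0.000179. For day 15 minus day 18 the median of all genes was 0.06 and after rescaling -0.02. Deviations of same-numbered dishes of the 2 doses had correlations of 0.0764, 0.129 and 0.0267, and those of other pairs ran from -0.175 to 0.079. With 3 dishes per dose these values cannot show whether the numbers pair the dishes. With a replicate block 34 genes passed, all 26 included. With 3 dishes per dose and genes such as ST6GALNAC2 near 1 CPM, depth limits what low genes can show.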
